A study of Mus musculus with 4 samples.

Results

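Tuft cell genes were read on 4 Affymetrix 3′ expression arrays of RNA from germ-free (GF) mice, with and without colonization by Lactobacillus NK318.1, a strain isolated in the study from mouse feces. The 10 genes Dclk1, Alox5ap, Rgs13, Trpm5, Pou2f3, Il25, Il17rb, Gfi1b, Ptgs1 and Hpgds were chosen from known tuft cell markers, with earlier results of these same arrays in view, and all probe sets annotated to them were taken. Of the 10 genes, 9 had a probe set in the annotation used, 19 probe sets in all, out of 18193 genes and 45037 probe sets on the array. Expression of Ptgs1, which encodes cyclooxygenase-1, was not analysed here. The 4 groups, each 1 array, were intestinal epithelial cells (IEC) of GF mice monocolonized with NK318.1 (labelled NK318-IEC), IEC of GF mice (GF-IEC), Peyer's patch cells of NK318.1-colonized mice (NK318.1-PP) and Peyer's patch cells of GF mice (GF-PP). All mice were C57BL/6 kept in vinyl isolators. The colonized mice received 100000000 bacteria and were sampled 2 weeks later. The study describes the samples as pools of several mice. With 1 array per group there was no replicate, no test and no error on any value, and every difference below is a ratio between 2 arrays. The ages of the mice are not in the labels.

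Tuft cells are rare chemosensory cells of the intestinal epithelium. They carry a signalling chain related to that of taste cells, in which a G protein, phospholipase C and inositol trisphosphate receptors open the cation channel TRPM5. They depend on the transcription factor POU2F3, make leukotrienes and prostaglandins, and release the cytokine IL-25, which acts on group 2 innate lymphoid cells in a circuit best known from worm infection. Several tuft cell genes are also used by other cells: Rgs13 by germinal center B cells and mast cells, Alox5ap and Hpgds by leukocytes, and Gfi1b by the megakaryocyte and erythroid lineages.

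In the epithelial cells, 3 tuft cell genes had an intensity in NK318-IEC that was 5.89-fold to 6.38-fold that in GF-IEC: Dclk1, Alox5ap and Rgs13. Trpm5 was 1.96-fold higher, and Pou2f3, Gfi1b and Il17rb differed by less than 1.2-fold. Il25 and Hpgds lay below the floor of 15.5, the intensity under which signals were not read as measured, on both epithelial arrays. In the Peyer's patch none of the genes differed by 2-fold. Of the 7 tuft cell genes measured in the epithelial cells 3 were past 2-fold upward and 0 downward, where the shares over all 13874 measured genes were 2.63% upward and 1.54% downward. All 7 lay above the floor on both epithelial arrays, so none entered the count through 1 array alone. Only Alox5ap, at 34.5, stood more than 2 times the floor in GF-IEC. No other of the 7 could have counted as 2-fold lower, so the count of 0 downward says little. Of the 9 genes with a probe set, the median log2 ratio was 0.24 with the 2 unmeasured genes set to 0. It was 0.97 over the 7 measured genes and 0.02 over all measured genes. Arrays of bulk cells cannot tell a different number of tuft cells from a different amount of RNA per tuft cell. The same pair of arrays also differed in genes of other tissues: the summed intensity of 6 stomach mucosa genes was 31990.8 in NK318-IEC and 349.4 in GF-IEC, and that of 6 pancreatic acinar genes 9005.3 in NK318-IEC and 1148.5 in GF-IEC. The part of such RNA in the tuft cell values was not tested.

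Dclk1 encodes a doublecortin-like kinase and is the most used marker of mouse intestinal tuft cells. Its intensity was 108 in NK318-IEC, against 16.9 in GF-IEC, and it was 19.1 in NK318.1-PP, against 18.4 in GF-PP. The colonized epithelial array stood alone, 6.38-fold above the GF epithelial array (log2 ratio 2.67), while the other 3 arrays lay just over the floor. These values come from 1 of 9 probe sets (1450863_a_at), the one with the highest mean log2 intensity, and the others did not all repeat them. Probe set 1435940_at gave 62.6 in NK318-IEC and 21.2 in GF-IEC, a log2 ratio of 1.56. Probe set 1451289_at gave 33.9 and 5.41 in the same order, so that the colonized array was at least 2.19-fold higher against the floor. For 1424271_at the values were 25.8 in NK318-IEC and 7.76 in GF-IEC, and for 1446190_at 24.9 in NK318-IEC and 8.10 in GF-IEC, at least 1.67-fold and 1.60-fold higher. The remaining 4 probe sets lay below the floor on both epithelial arrays. All 5 probe sets that were measured in the epithelial cells were therefore higher in the colonized array, 3 of them at least 2-fold. The 5 measured in the Peyer's patch had log2 ratios between 0.05 and 0.40. When the log2 intensities of the 9 probe sets were averaged, the GF-IEC value fell under the floor. The log2 ratio of 0.34 in that setting is therefore a lower bound, and it did not reach the 2-fold limit. The suffix _a_at of 1450863_a_at marks a design that can read several transcripts. When probe sets with the suffixes _a_at, _s_at or _x_at were left out, the gene was read by 1435940_at, 2.96-fold higher.

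The probe sets of Dclk1 also differed in tissue pattern. The probe sets 1424271_at, 1436659_at and 1451289_at were strongest in the Peyer's patch, at 48.8, 42.3 and 56.1 in NK318.1-PP and at 45.9, 34.5 and 42.4 in GF-PP, against 7.76, 4.37 and 5.41 in GF-IEC. In contrast, 1450863_a_at and 1435940_at were strongest in NK318-IEC. RefSeq lists 2 Dclk1 transcription starts among the promoters used here, and the 200 bases before each are shown because the probe sets of this gene do not move as 1, although which start each probe set reads was not tested. The first lies at chr3:55242164-55242363 and the second at chr3:55461528-55461727, both on the plus strand of build GRCm38.p6. The 200 bases before the start of Rgs13 (chr1:144177373-144177572, minus strand) and of Hpgds (chr6:65144731-65144930, minus strand) are given for comparison, Rgs13 as a gene that was higher in the colonized epithelial array and Hpgds as one below the floor there. Capitals mark the octamer ATGCAAAT, the motif bound by POU2F3 and other octamer-binding factors, searched on both strands.
Dclk1, first start: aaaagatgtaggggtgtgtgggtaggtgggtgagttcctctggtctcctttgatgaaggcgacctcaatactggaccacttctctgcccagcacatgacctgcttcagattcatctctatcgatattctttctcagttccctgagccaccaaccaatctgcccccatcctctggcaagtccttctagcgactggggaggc
Dclk1, second start: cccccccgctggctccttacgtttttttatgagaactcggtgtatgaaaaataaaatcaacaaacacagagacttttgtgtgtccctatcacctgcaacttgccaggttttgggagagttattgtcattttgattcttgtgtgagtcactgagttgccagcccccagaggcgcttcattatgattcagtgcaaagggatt
Rgs13: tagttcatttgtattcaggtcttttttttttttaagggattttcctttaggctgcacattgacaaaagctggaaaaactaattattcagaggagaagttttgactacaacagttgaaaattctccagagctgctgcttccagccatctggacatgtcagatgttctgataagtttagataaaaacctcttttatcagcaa
Hpgds: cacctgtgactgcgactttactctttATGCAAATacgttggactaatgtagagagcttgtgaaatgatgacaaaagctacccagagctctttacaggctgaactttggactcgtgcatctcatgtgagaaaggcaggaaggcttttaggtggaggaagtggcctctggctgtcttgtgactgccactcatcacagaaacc

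Of the 10 genes, 7 had a promoter in the RefSeq table, Ptgs1 among them, with 8 starts. The octamer was found in 1 of these 8 windows of 250 bases before the start, that of Hpgds, 174 bases before it, and in 1.60% of 32851 promoters of all genes. The windows of Dclk1, Rgs13 and Trpm5 held no copy of these 8 letters. The matches describe the letters of these windows and say nothing of binding.

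Rgs13 encodes a regulator of G protein signalling. Its intensity was 168 in NK318-IEC, against 28.6 in GF-IEC, a 5.89-fold difference (log2 ratio 2.56). The Peyer's patch values were 709.7 in NK318.1-PP and 576 in GF-PP (log2 ratio 0.30). Both Peyer's patch arrays thus lay above both epithelial arrays. Germinal center B cells, which fill the follicles of Peyer's patches, also use Rgs13, and the B cell genes were examined beside it. Ms4a1, which encodes the B cell surface protein CD20, had 13.0 in NK318-IEC and 24.3 in GF-IEC, against 4097 in NK318.1-PP and 3969 in GF-PP. Of 8 B cell genes, a list written after the arrays were seen, 0 of the 7 measured in the epithelial cells were 2-fold higher or lower, with a median log2 ratio of −0.03. Their summed intensity was 171.6 in NK318-IEC and 188.2 in GF-IEC, while it was 13921.3 in NK318.1-PP and 14405.9 in GF-PP. Of the 7 measured B cell genes, only Cd22, at 35.5, stood more than 2 times the floor in GF-IEC. No other of the 7 could have counted as 2-fold lower. Of 6 germinal center genes with a probe set 4 were measured in the epithelial cells, and none of the 4 differed 2-fold. Other genes that B cells use were higher in NK318-IEC beside Rgs13: Iglv1, an immunoglobulin light chain gene, had 240.3 in NK318-IEC and 29.6 in GF-IEC, and Spib and Lrmp are given with the further tuft cell genes. The part of B cell RNA in the Rgs13 values was not tested.

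Alox5ap encodes the 5-lipoxygenase activating protein, which is needed to make leukotrienes. It had 220.2 in NK318-IEC, against 34.5 in GF-IEC, which is 6.38-fold higher (log2 ratio 2.67). The order was the other way in the Peyer's patch, with 182 in NK318.1-PP and 233 in GF-PP (log2 ratio −0.35). The colonized epithelial array reached the level of the Peyer's patch arrays, and the GF epithelial array lay below all others. Leukocytes use this gene too. All 7 leukocyte genes of the list were at least 2-fold lower in NK318-IEC, with a summed intensity of 268.2 in NK318-IEC and 4154.2 in GF-IEC. Of these sums Gzma made up 128 in NK318-IEC and 2734 in GF-IEC. Ptprc, which encodes CD45, had 23.1 in NK318-IEC and 271 in GF-IEC. Alox5ap was higher in the epithelial array in which these genes, T cell and cytotoxic genes such as Cd3g and Gzmb among them, were lower. Of 9 macrophage and monocyte genes 7 were measured in the epithelial cells, 0 were 2-fold higher and 1, Lyz2, was lower (log2 ratio −2.09). Of 12 mast cell genes 8 were measured, and 0 differed 2-fold (median log2 ratio −0.09). The part of RNA of leukocytes or of other tissues in the Alox5ap values was not tested.

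Trpm5 encodes the calcium-activated cation channel at the end of the taste-type signalling chain. It had 59.5 in NK318-IEC and 30.3 in GF-IEC, 1.96-fold higher (log2 ratio 0.97) and so just short of 2-fold. A second probe set (1443413_s_at) gave 44.5 in NK318-IEC and 16.3 in GF-IEC, 2.74-fold higher, and the third (1449224_at) 21.0 and 17.8 in the same order. All 3 probe sets were higher in the colonized epithelial array. All 3 were, in the Peyer's patch, near or under the floor, with 15.8 in NK318.1-PP and 14.1 in GF-PP for the first. By each of the 3 probe sets, both epithelial arrays lay above both Peyer's patch arrays.

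**Figure D1:**
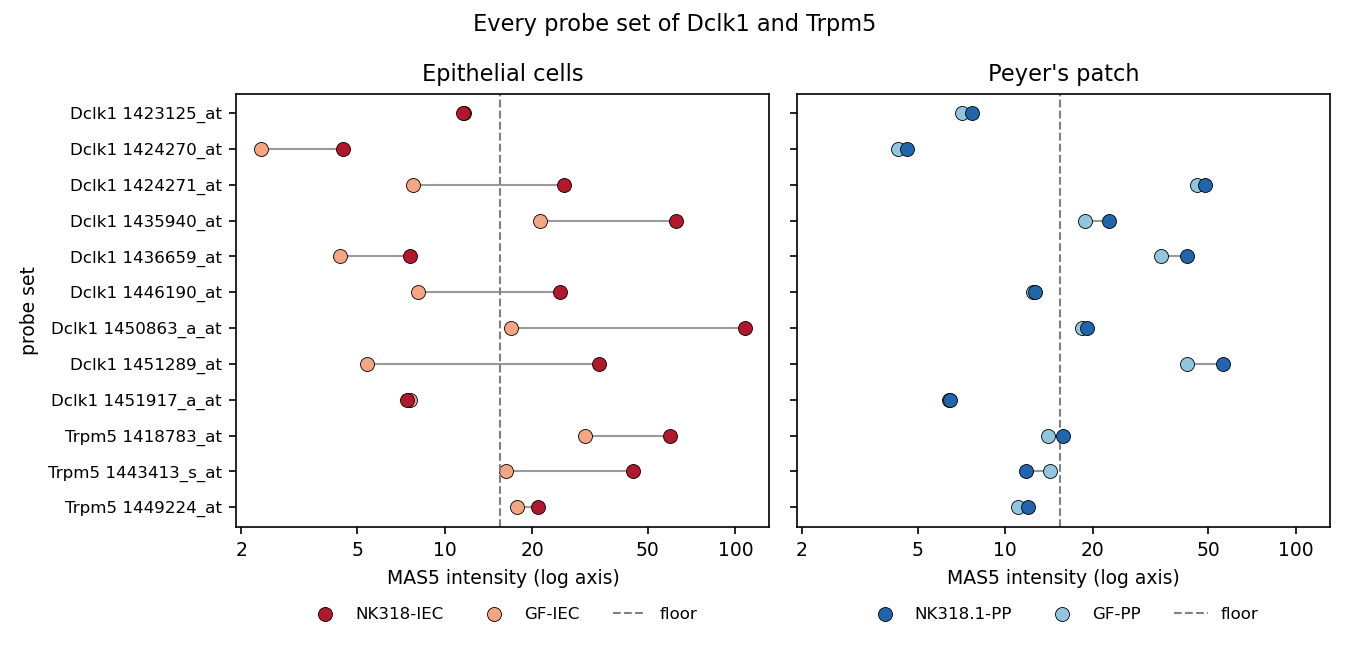
MAS5 intensity (log axis) of each of the 9 probe sets of Dclk1 and 3 of Trpm5, as 1 point per array, in epithelial cells (left) and Peyer's patch (right); the dashed line is the floor of 15.5. In epithelial cells the measured probe sets lie further right in NK318-IEC than in GF-IEC, up to 108 against 16.9, while in the Peyer's patch the 2 points of a probe set nearly coincide.

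The transcription factor genes Pou2f3 and Gfi1b did not differ 2-fold in either tissue. Pou2f3, without which tuft cells are not formed in mice, had 31.4 in NK318-IEC and 29.9 in GF-IEC (log2 ratio 0.07), and 24.3 in NK318.1-PP and 27.3 in GF-PP (−0.17). Between epithelial cells and Peyer's patch of the same mice it differed by at most 1.29-fold. Gfi1b, a zinc finger repressor found in tuft cells, had 27.2 in NK318-IEC and 23.0 in GF-IEC (0.24), and 18.0 in NK318.1-PP and 18.6 in GF-PP (−0.05). Of 5 genes of the megakaryocyte and erythroid lineages measured in the epithelial cells 0 differed 2-fold (median −0.19). Both genes have 1 probe set each and stayed under 2 times the floor on most arrays.

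The cytokine gene Il25 could not be measured, and its receptor gene Il17rb did not differ 2-fold. Il25 had 7.00 in NK318-IEC, 6.61 in GF-IEC, 6.59 in NK318.1-PP and 6.18 in GF-PP, all under the floor, so no ratio was formed. Il17rb, the chain of the IL-25 receptor that binds the cytokine and that tuft cells themselves carry, had 35.1 in NK318-IEC and 29.9 in GF-IEC (log2 ratio 0.23). Peyer's patch cells had 64.1 in NK318.1-PP and 45.6 in GF-PP (0.49). Hpgds, the hematopoietic prostaglandin D synthase, had 12.3 in NK318-IEC and 10.6 in GF-IEC, under the floor, but 35.9 in NK318.1-PP and 56.5 in GF-PP. Its Peyer's patch log2 ratio of −0.65 was the lowest of the genes in that tissue.

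**Figure D2:**
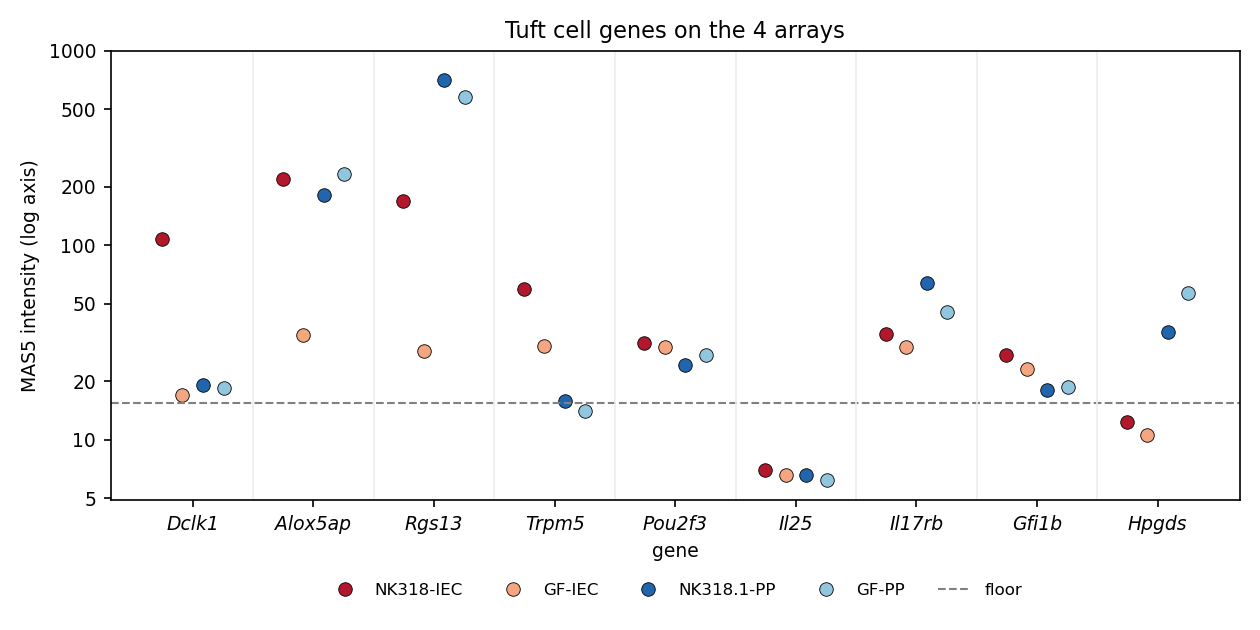
MAS5 intensity (log axis) of the 9 tuft cell genes with a probe set, each by its probe set of highest mean intensity, with 1 point for each of the 4 arrays; the dashed line is the floor of 15.5. Dclk1, Alox5ap and Rgs13 are several-fold higher in NK318-IEC (108, 220.2 and 168) than in GF-IEC (16.9, 34.5 and 28.6), and the other genes lie closer together.

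In the Peyer's patch, 8 of the 9 genes were measured, 0 of 8 were 2-fold higher or lower, and 4 lay on either side of 0. Their median log2 ratio was −0.01, beside −0.03 over all measured genes, of which 0.149% were at least 2-fold higher and 0.573% at least 2-fold lower. The largest positive log2 ratio was 0.49 for Il17rb. Trpm5 counted as measured through 1 array only. At a limit of 1.5-fold, 1 gene, Hpgds, would have counted as lower.

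The tissue label was checked on the same arrays. The 6 general epithelial genes, such as Epcam (3623 in NK318-IEC, 3926 in GF-IEC, 57.0 in NK318.1-PP and 75.9 in GF-PP), were all at least 2-fold higher in epithelial cells than in Peyer's patch in both groups of mice. Tuft cell genes as a list were not. In colonized mice 2 of 8 were past 2-fold toward the epithelial array, Dclk1 (5.65-fold) and Trpm5 (3.77-fold), against 18.4% of all measured genes. The 2 lower genes were Rgs13 (log2 ratio −2.07) and Hpgds (−1.21, at the floor), against 16.8% of all. The Dclk1 value is that of 1450863_a_at. Of the 6 Dclk1 probe sets measured in colonized mice, 2 were at least 2-fold higher in epithelial cells and 1 at least 2-fold lower (median −0.02). In GF mice 0 of 8 were higher (16.0% of all genes) and 3 were lower (18.5% of all), namely Rgs13 (−4.33), Alox5ap (−2.75) and Hpgds (−1.86, at the floor). In GF mice Trpm5 was at least 1.95-fold higher in epithelial cells, and Dclk1 had a log2 ratio of −0.13 by 1450863_a_at. By 3 of its 5 measured probe sets Dclk1 was at least 2-fold lower in epithelial cells of GF mice (median −1.15). The defining markers Dclk1, Trpm5 and Pou2f3 therefore stood at or within 2 times the floor in GF-IEC, and Il25 was under it on every array. The 4 ratios share arrays and are not independent.

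Further tuft cell genes that were not among the 10 were read from a second list of 21 genes, likewise written with results of these arrays known. Of the 19 with a probe set, 15 were measured in the epithelial cells, of which 6 were at least 2-fold higher in the colonized array and 0 lower, where 2.63% of all measured genes were higher and 1.54% lower. Their median log2 ratio was 0.64. Of the 6, all were above the floor on both epithelial arrays. Highest was Avil, which encodes the actin-binding protein advillin, with 244 in NK318-IEC and 32.4 in GF-IEC (log2 ratio 2.91). Sh2d6, an SH2 domain adaptor, had 106 in NK318-IEC and 21.1 in GF-IEC (2.33). Neither gene was raised in the Peyer's patch, where Avil had 25.9 in NK318.1-PP and 28.9 in GF-PP and Sh2d6 had 15.2 and 13.7, under the floor. These 2 genes had their highest signal in the same array as Dclk1 read by 1450863_a_at or 1435940_at. By 1424271_at, 1436659_at and 1451289_at, Dclk1 was instead highest in NK318.1-PP. Lrmp, an endoplasmic reticulum membrane protein of lymphocytes and taste-type cells, had 99.9 in NK318-IEC and 20.6 in GF-IEC (2.28), with 465 in NK318.1-PP and 453 in GF-PP. Spib, an Ets factor of B cells, M cells and tuft cells, had 127 in NK318-IEC and 31.2 in GF-IEC (2.03). Nrep had a log2 ratio of 1.46 and 1.24 by its other probe set, and Inpp5d, the phosphatase SHIP1, 1.33 but 0.12 by its other probe set. Cd300lf, the mouse norovirus receptor, lay just under the limit at 0.96.

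The genes of the list that did not differ 2-fold were as varied. Siglecf had 16.3 in NK318-IEC and 4.57 in GF-IEC, only just over the floor. Chat, Bmx, Hmx2 and Hmx3 were under the floor on both epithelial arrays. Sox9 (0.32), Cd24a (0.25), Vav1 (0.16), Fyb (0.00) and Ptpn6 (−0.03), which other epithelial or blood cells use as well, lay near 0. Of 13 genes of this list measured in the Peyer's patch 0 differed 2-fold (median −0.07).

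The taste-type chain was read from 8 genes with a probe set, of which 7 were measured in the epithelial cells. Only Itpr2, an inositol trisphosphate receptor, passed 2-fold (upward in 2.63% of all measured genes), with 83.8 in NK318-IEC and 40.8 in GF-IEC (log2 ratio 1.04), and its 5 other probe sets ran from −0.38 to 0.95. Itpr3 had 0.92 and Plcb2, the phospholipase of the chain, 0.42. The G protein subunits Gng13 (−0.05) and Gnb3 (0.04) and the taste receptors Tas1r1 (0.24) and Tas1r3 (−0.46) had 34.9 or less on both epithelial arrays. The median was 0.24.

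Among the eicosanoid genes outside the 10, 0 of 11 measured in the epithelial cells differed 2-fold, and the median log2 ratio was −0.02. Alox5, the lipoxygenase that works with the Alox5ap product, had 81.1 in NK318-IEC and 51.0 in GF-IEC (0.67), and Ltc4s, the leukotriene C4 synthase, 65.3 and 43.0 in the same order (0.60). Ptgds, a prostaglandin D synthase gene, had 0.40 and Pla2g4a, a phospholipase A2 gene, 0.37. Lta4h, which makes leukotriene B4, had −0.53 and the prostaglandin receptor Ptger4 −0.93. Of the 11 genes 5 lay above 0 and 6 below it.

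Of the type 2 circuit genes, 12 were measured in the epithelial cells, 2 were at least 2-fold higher and 0 lower, beside 2.63% and 1.54% of all measured genes, and the median was −0.20. Il33, an alarmin of epithelial and stromal cells, had 144 in NK318-IEC and 55.2 in GF-IEC (log2 ratio 1.39). Retnlb, a goblet cell product that IL-13 induces, had 42.2 in NK318-IEC and 11.5 in GF-IEC, at least 2.72-fold higher against the floor, and it counted as measured only through the colonized array. The cytokine genes Il13 (22.0 in NK318-IEC and 26.6 in GF-IEC) and Il9 (24.1 and 31.0) were near the floor and Il4 and Il5 under it on both epithelial arrays. None of these 4 cytokine genes was higher in the colonized epithelial array.

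**Figure D3:**
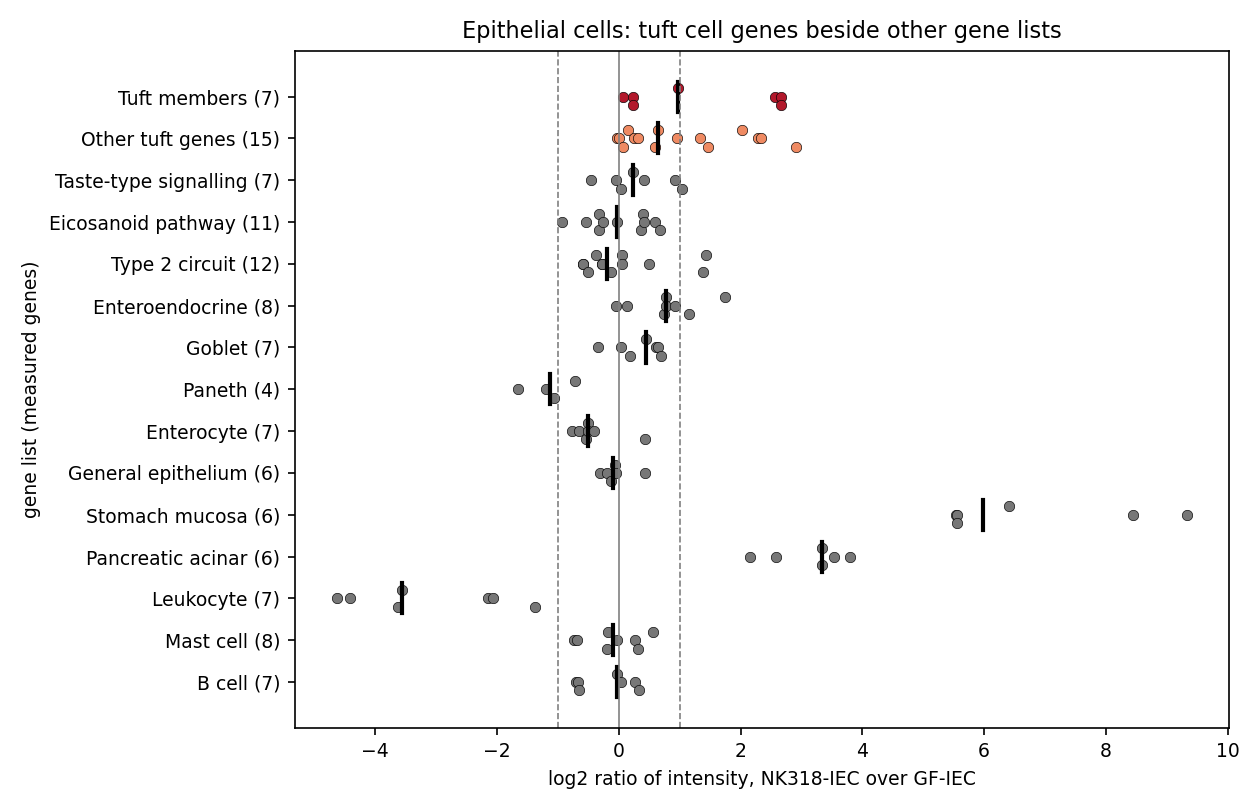
Log2 ratio of intensity, NK318-IEC over GF-IEC, of each measured gene of the tuft cell lists (coloured) and of other lists (grey), with the number of measured genes after each name; black bars are medians and dashed lines mark 2-fold. The tuft cell genes reach 2.67 and the further tuft cell genes 2.91, the stomach mucosa genes reach 9.33, and the leukocyte genes run down to −4.62.

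Other gene lists moved in the same pair of arrays. The 8 enteroendocrine genes had a median log2 ratio of 0.77 with 2 at least 2-fold higher, Neurog3 (1.75) and Tph1 (1.15), beside 2.63% of all measured genes. The 7 goblet cell genes had 0.45 with 0 past 2-fold, and 3 of 4 measured Paneth cell genes were at least 2-fold lower (median −1.13), beside 1.54% of all. The median was −0.51 for enterocyte and −0.09 for general epithelial genes. All 6 stomach mucosa genes were at least 2-fold higher, and 2 of them, Gkn1 and Gkn2, were under the floor in GF-IEC. All 6 measured pancreatic acinar genes were higher too. Stomach epithelium also holds Dclk1-positive tuft cells. The summed intensity of the stomach genes in the Peyer's patch was 305.8 in NK318.1-PP and 358.9 in GF-PP.

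The arrays differed in other respects. Median intensities ran from 23.0 to 23.3. For β-actin the signal at the 3′ end over that at the 5′ end, a ratio that increases when RNA is broken, was 4.10 in NK318-IEC, 2.73 in GF-IEC, 1.74 in NK318.1-PP and 1.60 in GF-PP. The hybridization spikes had a median of 1746 in NK318-IEC and 775 in GF-IEC, and of 459 in NK318.1-PP and 412 in GF-PP. Xist, expressed from the inactive X chromosome, had 4889 in NK318-IEC and 46.7 in GF-IEC, and 4586 in NK318.1-PP and 21.7 in GF-PP, so that colonization and the sex of the pools cannot be told apart. The part of these differences in the tuft cell values was not tested.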

How the data were processed

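RNA of epithelial cells and Peyer's patch cells was labelled with biotin and hybridized to Affymetrix 3′ arrays, 1 per group. The authors deposited 1 MAS5 intensity for each probe set, on a linear scale; the MAS5 version and scaling target were not given in the sources read. The methods also name limma and a 2-fold limit with an adjusted p, which 1 array per group cannot give. The intensities were used without further scaling. Beside 64 controls there were 45037 probe sets, of which 34945 name 1 gene, 932 several (left out) and 9160 none in the platform annotation used. A gene was represented by its probe set of highest mean log2 intensity over the 4 arrays. Intensities under 15.5, the 40th percentile of an array (median of the 4 arrays), were set to this floor, and measured genes are those with at least 1 array of a comparison over it. A fold against a value at the floor is a lower bound. Log2 ratios were colonized over GF, or epithelial cells over Peyer's patch. Without replicates the precision is unknown. Intensities of different probe sets were compared to choose the probe set of a gene and the gene for the profile comparison. They were added up in the summed intensities of the lists, in which the strongest probe sets weigh most.

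The genes and lists were chosen with earlier results of these data known. Named were all 10 genes, and of the other lists those past 2-fold and up to 4 at either end, and the 5 genes nearest in profile to the gene with the highest mean intensity. Chat, Bmx, Hmx2, Hmx3, Cd300lf, Pla2g4a, Il5, Xist, the B cell genes and the genes nearest to Dclk1 are not covered by that rule. They were picked with their values in view. Not all genes that the rule covers were described, Skap2 and Atp2a3 of the further tuft cell genes among them. In the type 2 list, Klrg1 (log2 ratio −0.59), Rora (−0.58, at the floor) and Crlf2 (−0.50) were lowest in the epithelial cells and were not described. The alternatives tried were median centring, quantile normalization, other floors, averaged probe sets, and limits of 1.5-fold and 4-fold. Another left out the probe sets with the suffixes _a_at, _s_at or _x_at. The procedure was tested on simulated data. Promoter sequences are from RefSeq, build GRCm38.p6. Python 3.11.15, numpy 2.4.6, pandas 2.3.3 and matplotlib 3.10.9 were used.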

Additional observations from a re-analysis of the deposited data

Results flagged for a closer look

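Alox5ap was past 2-fold higher in the colonized array of epithelial cells, and 1.27-fold lower in that of the Peyer's patch. The Peyer's patch difference was small, within the central 95% of all measured genes there (log2 ratio −0.60 to 0.41). The log2 ratio of Alox5ap, colonized over GF, was 2.67 in the epithelial cells (220.2 in NK318-IEC and 34.5 in GF-IEC). It was −0.35 in the Peyer's patch (182 in NK318.1-PP and 233 in GF-PP), and the 2 ratios differ by 3.02. With 1 array per group this difference was not tested. A single sample that stands apart within a group could not be looked for with 1 array each.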

How the results depend on the processing

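No paired analysis was possible because a group is 1 array. With no replicates there is no error to read a shift against, so alternatives are given as values. No gene past 2-fold changed direction in any of them. The count of 3 genes higher in epithelial cells was 2 with averaged probe sets, 4 with quantile normalization and at 1.5-fold, and 3 with 4-fold and the other planned settings. With averaged probe sets Dclk1 fell under the floor in GF-IEC, so its log2 ratio there is a lower bound. In epithelial cells the median log2 ratio of 0.97 became 1.85 with the floor at the 60th percentile (4 genes measured) and 0.24 with no floor (9 genes). With averaged probe sets it was 0.34, the lower bound of Dclk1. Alox5ap and Rgs13 stayed past 2-fold in all 9 settings and Dclk1 in 8 of 9. The exception was the lower bound of 0.34 with averaged probe sets. However, Dclk1 was 1.56 without probe sets of the suffixes _a_at, _s_at or _x_at, and at least 1.53 with the floor at the 60th percentile. Alox5ap and Rgs13 have 1 probe set each, neither with such a suffix. Averaging probe sets or leaving out those suffixes could therefore not change them, while Dclk1 has 9 probe sets. Relative to the general epithelial genes, a setting chosen after seeing the data, 4 genes were past 2-fold. In the Peyer's patch 1 gene was lower at 1.5-fold. For epithelial cells over Peyer's patch, 1 gene was higher in GF mice with quantile normalization, with no floor and with a 25th percentile floor, and the median in GF mice was −1.62 with the floor at the 60th percentile. In colonized mice that floor left 1 gene higher and 1 lower, and averaged probe sets 1 higher. Near the floor a difference could not be measured.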

Other observations

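The gene whose profile lay nearest to that of Rgs13 over the 4 arrays was Lrmp, at a Euclidean distance of 0.30 in centred log2 intensity, among 14349 genes. It was followed by Iglv1 (0.61), an immunoglobulin light chain gene whose probes may read related genes, Trpc2 (0.83), St8sia6 (0.84) and Ly6e (0.99). Iglv1 had 240.3 in NK318-IEC and 29.6 in GF-IEC, and 1208 in NK318.1-PP and 1013 in GF-PP. With 4 arrays many genes share a profile by their tissue alone.

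The genes nearest to Dclk1, a comparison added after the values were seen, were Gp2 (0.19), Ogn (0.25), Fmo2 (0.30), Cldn18 (0.39) and Pdia2 (0.40). Gp2 and Pdia2 are known from pancreatic acinar cells, Cldn18 from stomach and Ogn from connective tissue, though not from these alone. Which cells gave the signal of these genes or of Dclk1 was not tested. Gp2 had 82.1 in NK318-IEC and 8.81 in GF-IEC, and Cldn18 124 in NK318-IEC and 14.8 in GF-IEC.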
